A study of Mus musculus with 32 samples.

Results

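The 10 genes described here encode the enzymes of serine synthesis and of the folate pathway that carries single-carbon units from serine, together with asparagine synthetase and the transcription factor ATF4. They were picked by symbol (Phgdh, Psat1, Psph, Shmt1, Shmt2, Mthfd1, Mthfd1l, Mthfd2, Asns and Atf4) out of 23337 genes, because Phgdh was low in macrophages of Rebound gliomas. All 10 had enough counts to be tested in every fit. The lowest count of any of them in any library was 26, for Shmt1 in the TC library of Endpoint mouse 49830.

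Gliomas were started in XFM mice, the strain named in the labels, by injecting DF-1:PDGFB cells into the brain at 5 to 6 weeks of age. DF-1 is a chicken fibroblast line, here carrying PDGFB, a growth factor that signals through PDGFRA. Mice entered the trial when tumours measured 20 to 40 mm3 and received Vehicle or BLZ945, an inhibitor of the CSF-1 receptor, every day until symptoms or an age of 26 weeks. Rebound mice had received BLZ945 (5 TAM and 5 TC libraries), Endpoint mice had received BLZ945 and carried tumours labelled dormant (6 TAM and 6 TC libraries), and Vehicle mice served as controls (5 TAM and 5 TC libraries). TAM are CD11b+ Gr1- tumour-associated macrophages and microglia, and TC are PDGFRA+ cells sorted as tumour cells from the same papain digests. Each of the 32 libraries came from one animal, and 15 of the 17 mice gave both sorts. The agent label reads BLZ945 in all libraries, Vehicle included, so treatment was taken from the stage.

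Serine is made from the glycolytic intermediate 3-phosphoglycerate by PHGDH, PSAT1 and PSPH in turn. Serine hydroxymethyltransferases (SHMT1 in the cytosol, SHMT2 in mitochondria) then split serine into glycine and a carbon unit bound to tetrahydrofolate, and the MTHFD enzymes pass that unit between oxidation states for purine, thymidylate and formate production. ATF4 is translated when the kinases that phosphorylate eIF2 alpha sense amino acid or protein-folding stress, and its known targets include Phgdh, Psat1, Shmt2, Mthfd2 and Asns. In normal brain PHGDH is known chiefly as an astrocyte enzyme.

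Library totals lay between 9.54 M and 30.4 M counts for TAM, where the Vehicle libraries were deepest (at least 25.6 M), and between 4.18 M and 23.0 M counts for TC, where an Endpoint library was shallowest. Every count was even in the 22 Endpoint and Rebound libraries and not in the 10 Vehicle libraries, so this property of the files cannot be told apart from treatment. TAM libraries carried the macrophage and microglia markers, whose 10 genes summed to 23354 to 41610.1 CPM in Rebound, 36212 to 42882 CPM in Endpoint and 46011 to 76742 CPM in Vehicle mice. The PDGFRA+ sort was less uniform. Its 10 markers of PDGFRA tumour cells and oligodendrocyte progenitors summed to 1946 to 6880.0 CPM in Rebound, 245 to 2150.0 CPM in Endpoint and 2089 to 7527 CPM in Vehicle libraries, and the TC Endpoint libraries also held the highest levels of oligodendrocyte, ependymal and, in 4 of 6, T and NK cell markers. In those libraries TC is therefore the name of a gate rather than of tumour cells shown by their markers. In bulk samples such as these, fewer cells of a type and less RNA per cell cannot be told apart.

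**Figure D1:**
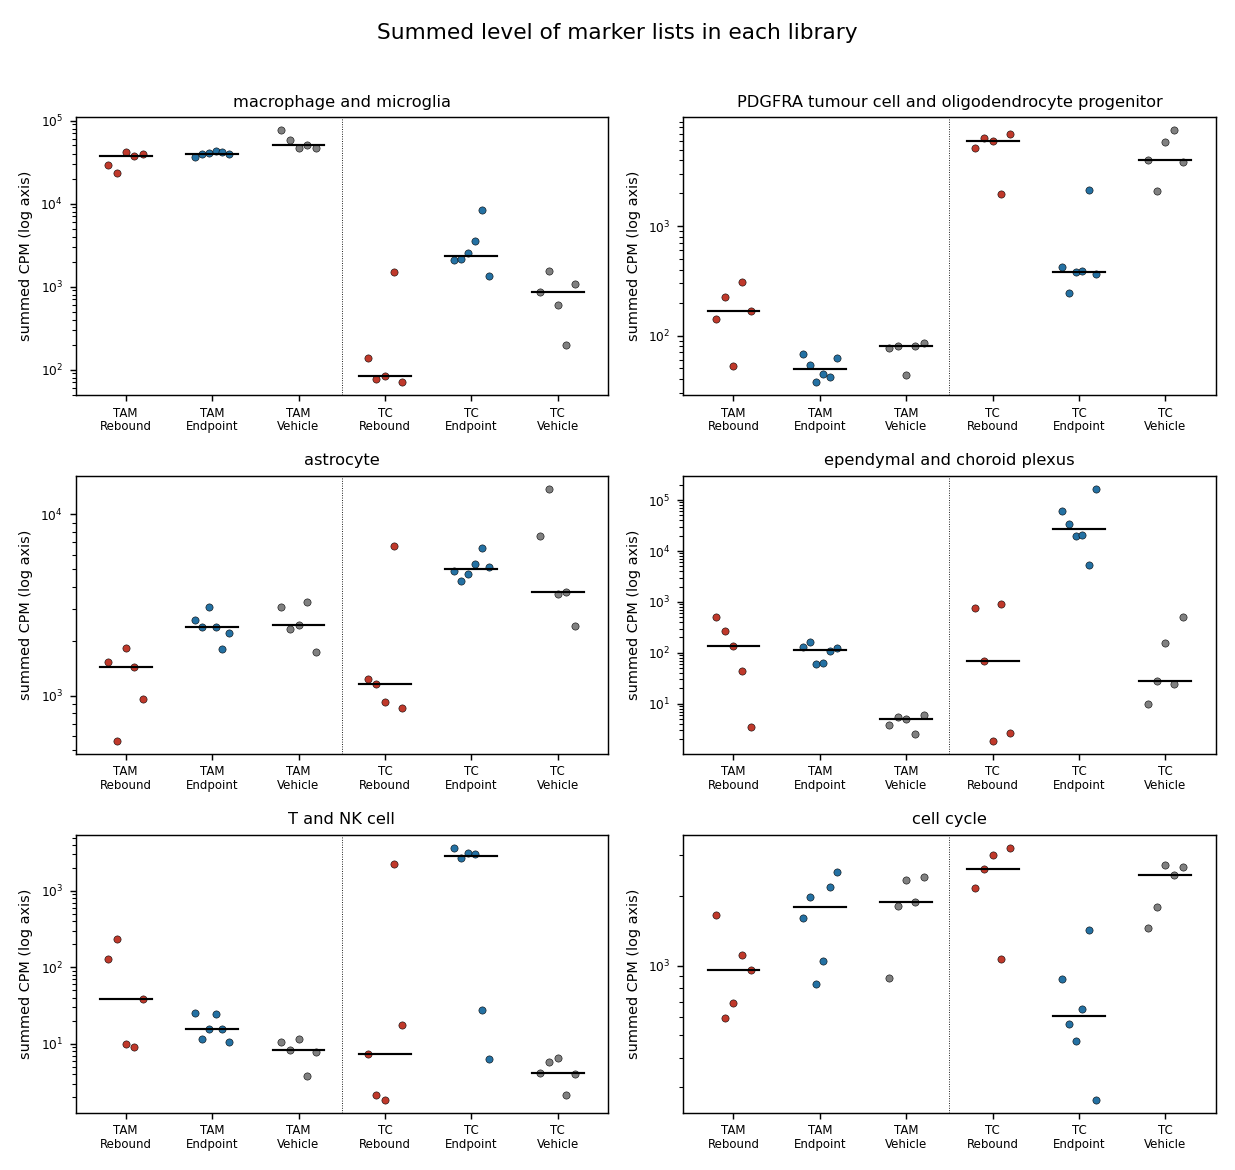
Summed level of 6 marker lists in each library (CPM, log axis), one point per library, with the group median as a line, for TAM on the left and TC on the right of the dotted line. The TC Endpoint libraries stand apart in the ependymal and choroid plexus list (5234 to 166454 CPM, against 9.80 to 509 CPM in TC Vehicle), and 4 of them, with 1 TC Rebound library, in the T and NK cell list.

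The stretches just upstream of Phgdh, Psat1 and Asns are shown for 3 of the genes the results turn on, Phgdh and Psat1 for their Endpoint values in macrophages and Asns for its values in TAM against TC. They come from RefSeq on GRCm38.p6, the build of the counts (mm10), and all 10 genes had at least one RefSeq window. Each is the 250 bases before an annotated start, read 5′ to 3′ on the minus strand, at chr3:98339970-98340219 for Phgdh, chr19:15925060-15925309 for the distal of 2 Psat1 starts and chr6:7693210-7693459 for Asns. Capitals mark CCAAT, the CCAAT box, or TGATGNAA, the CARE motif that ATF4 dimers bind, searched on both strands without overlap between them.
Phgdh: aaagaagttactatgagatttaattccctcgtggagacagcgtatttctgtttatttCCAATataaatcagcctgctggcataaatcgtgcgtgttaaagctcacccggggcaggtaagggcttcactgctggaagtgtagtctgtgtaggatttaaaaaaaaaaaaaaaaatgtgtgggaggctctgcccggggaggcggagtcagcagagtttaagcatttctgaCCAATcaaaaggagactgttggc
Psat1: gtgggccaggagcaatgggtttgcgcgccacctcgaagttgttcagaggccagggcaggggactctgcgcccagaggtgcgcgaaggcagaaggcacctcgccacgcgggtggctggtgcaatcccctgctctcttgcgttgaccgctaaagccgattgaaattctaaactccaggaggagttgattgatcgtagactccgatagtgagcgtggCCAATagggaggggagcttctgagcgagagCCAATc
Asns: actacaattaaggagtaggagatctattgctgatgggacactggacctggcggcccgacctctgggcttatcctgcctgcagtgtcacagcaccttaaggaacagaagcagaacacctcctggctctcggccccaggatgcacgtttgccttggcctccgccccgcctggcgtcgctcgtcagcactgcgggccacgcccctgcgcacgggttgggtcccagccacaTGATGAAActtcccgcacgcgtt
The CARE letters occurred in the Asns window alone among the 11 windows of the 10 genes, starting 23 bases upstream, and in 3.45% of 32851 mouse windows of the same length. CCAAT was found for 7 of the 10 genes (Phgdh, Psat1, Psph, Shmt1, Mthfd1, Mthfd2 and Atf4) and in 33.8% of all windows. These matches describe letters only.

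**Figure D2:**
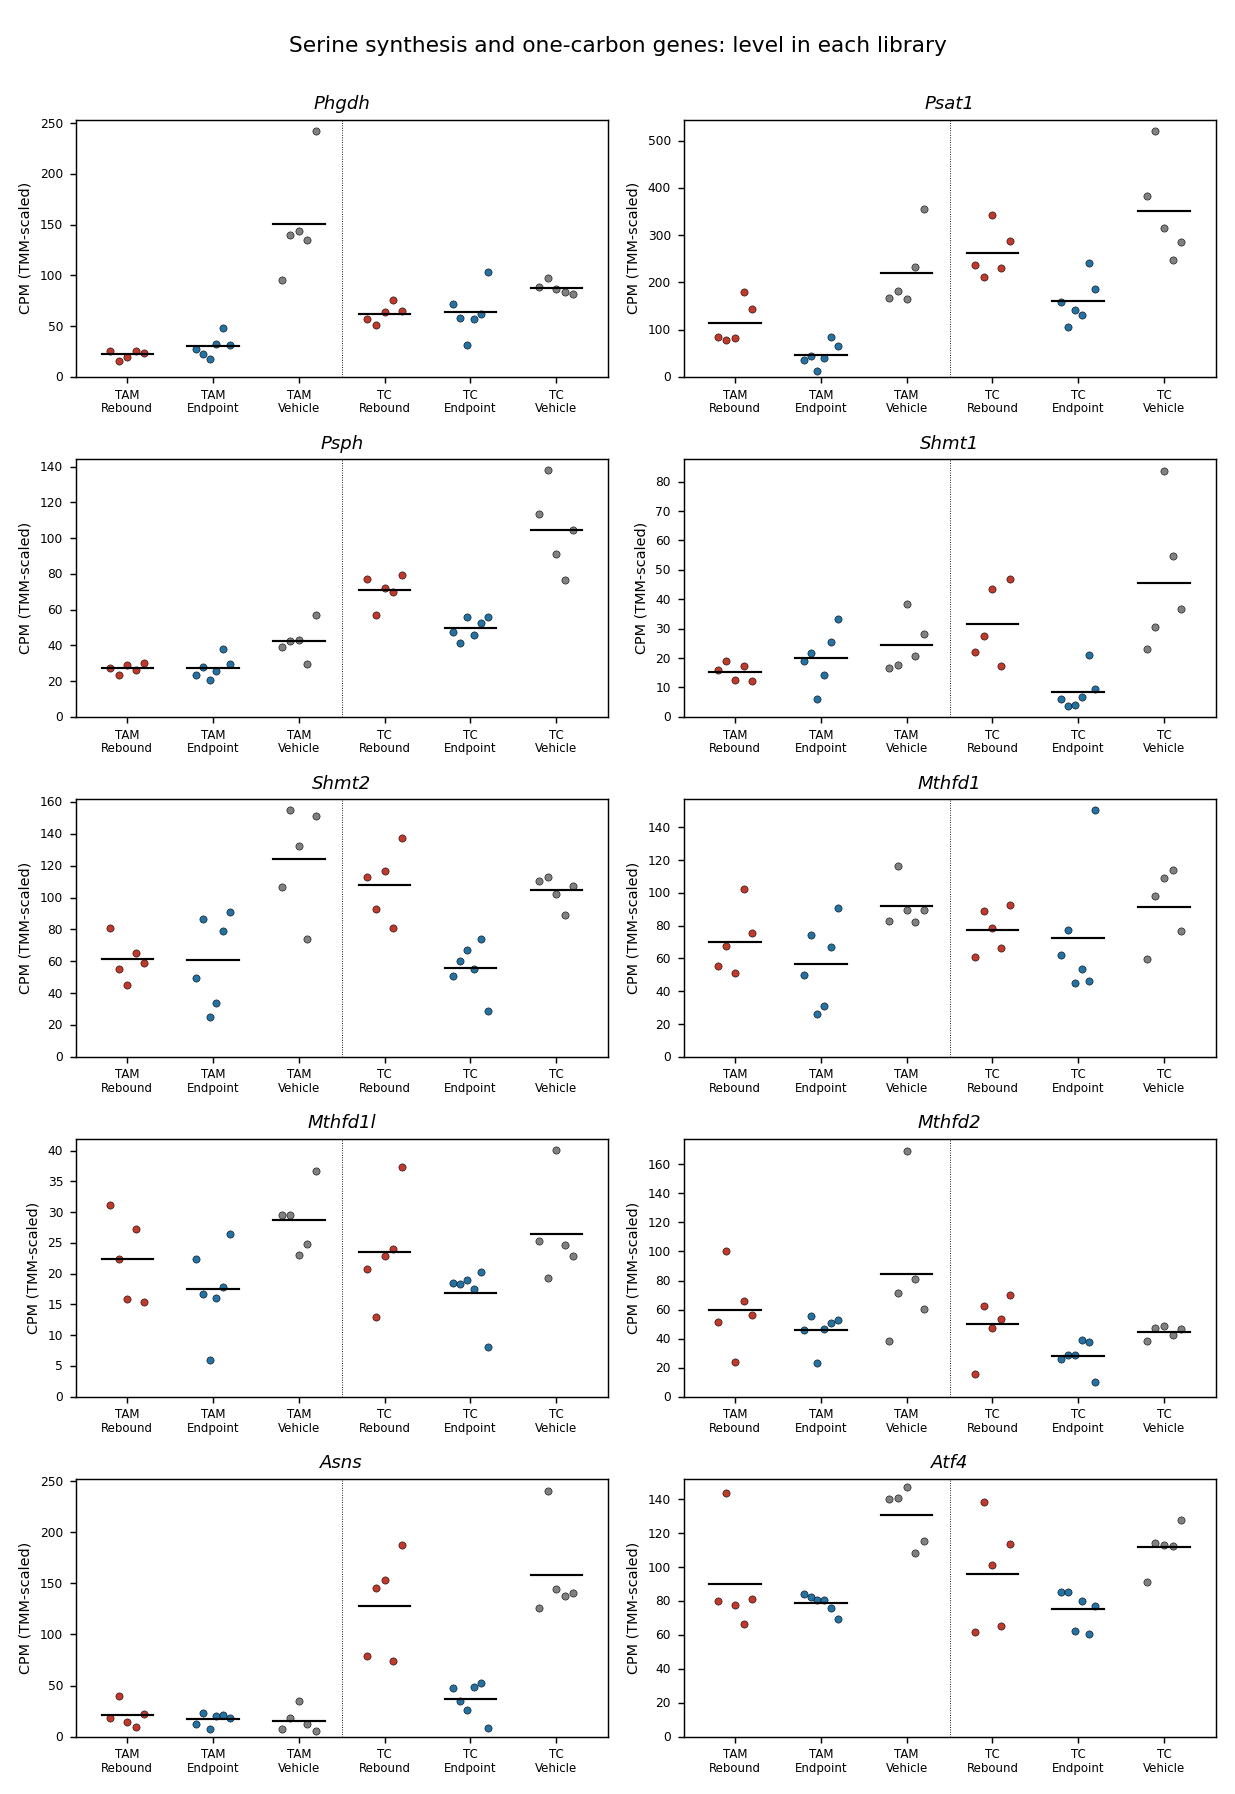
Level of each of the 10 genes in each library, in CPM (the share of a library's counts) after TMM scaling over all 32 libraries, one point per library and the group mean as a line. Phgdh in the TAM Rebound and TAM Endpoint libraries (16.1 to 47.9 CPM) lay below all 5 TAM Vehicle libraries (95.1 to 242 CPM), while Asns was lower in every TAM library than in any TC Vehicle library.

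In macrophages, the first 2 enzymes of serine synthesis had the most negative log2 fold changes of the 10 in Endpoint against Vehicle. Levels are given throughout as CPM (TMM-scaled), and log2 fold changes of stages come from fits within one sort. Phgdh, which commits 3-phosphoglycerate to serine, stood at 16.1, 19.9, 23.5, 25.5 and 25.7 CPM in TAM Rebound libraries, at 18.1 CPM at the lowest, 29.5 at the median and 47.9 at the highest in TAM Endpoint libraries, and at 95.1, 135, 139, 143 and 242 CPM in TAM Vehicle libraries. No Rebound or Endpoint library reached the lowest Vehicle library. The log2 fold change of Rebound over Vehicle was -2.69 (SE 0.282), a 6.44-fold lower level, and is not tested because it chose the genes. Endpoint over Vehicle gave -2.21 (SE 0.259, adjusted p = 1.03e-05), a 4.63-fold lower level, by edgeR's quasi-likelihood test with Benjamini-Hochberg adjustment. That p is no independent test, since the same Vehicle libraries were used in the choice. Rebound over Endpoint was -0.48 (SE 0.258), also without a test, and the ranges of those groups overlapped.

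Psat1, the aminotransferase of the next step, was at 77.6, 83.0, 84.0, 144 and 179.9 CPM in TAM Rebound libraries, at 12.4 CPM at the lowest, 41.9 at the median and 85.4 at the highest in TAM Endpoint libraries, and at 166, 167, 181, 233 and 356 CPM in TAM Vehicle libraries. Endpoint libraries all lay below Vehicle libraries, and the Rebound libraries were intermediate, with mouse 49834 the highest of them and inside the Vehicle range. The log2 fold change was -2.10 (SE 0.387, adjusted p = 0.000628) for Endpoint over Vehicle and 1.23 (SE 0.381, adjusted p = 0.0329) for Rebound over Endpoint. Rebound over Vehicle was -0.87 (SE 0.398), with no test. The Rebound over Endpoint call was close to the threshold. It was lost without any of TAM Endpoint 49823, 49825 and 49831 and TAM Rebound 49834 and 49849 (adjusted p = 0.0623 to 0.106). It was also lost with no filter on low counts (adjusted p = 0.0735). With single libraries left out, its log2 fold change stayed between 0.97 and 1.51. Psph, which completes the pathway, averaged 27.3 ± 2.68 CPM in TAM Rebound libraries, 27.5 ± 5.98 CPM in TAM Endpoint libraries and 42.3 ± 9.94 CPM in TAM Vehicle libraries (SD). Its Endpoint over Vehicle log2 fold change of -0.50 (SE 0.195, adjusted p = 0.0547) did not pass, but did with mouse as a replicate block (-0.61, adjusted p = 0.0187) and without TAM Endpoint 49843 and TAM Vehicle 57682 (adjusted p = 0.0161 to 0.0252).

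Of the 2 hydroxymethyltransferases, the mitochondrial enzyme gene Shmt2 was at 45.3, 55.3, 59.1, 65.2 and 80.8 CPM in TAM Rebound libraries, at 25.2 CPM at the lowest, 64.2 at the median and 90.7 at the highest in TAM Endpoint libraries, and at 73.9, 107, 132, 151 and 155 CPM in TAM Vehicle libraries. Endpoint libraries were spread widely, and 3 of 6 lay within the Vehicle range. The Endpoint over Vehicle log2 fold change was -0.91 (SE 0.295, adjusted p = 0.0233) and was lost without any of TAM Endpoint 49823 and 49831 and TAM Vehicle 54363 and 64247 (adjusted p = 0.0517 to 0.0680). Rebound over Vehicle was -0.94 (SE 0.311), with no test, and Rebound over Endpoint was -0.03 (SE 0.296, adjusted p = 0.966). The cytosolic enzyme gene Shmt1 ranged over 12.2 to 19.1 CPM in TAM Rebound libraries, 6.21 to 33.2 CPM in TAM Endpoint libraries and 16.5 to 38.2 CPM in TAM Vehicle libraries, and its Endpoint over Vehicle log2 fold change of -0.16 (SE 0.320, adjusted p = 0.736) did not pass.

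The folate enzymes did not pass in macrophages. Mthfd1, the cytosolic trifunctional enzyme, averaged 70.4 ± 20.3 CPM in TAM Rebound libraries, 56.6 ± 25.3 CPM in TAM Endpoint libraries and 92.3 ± 13.9 CPM in TAM Vehicle libraries. Endpoint over Vehicle was -0.59 (SE 0.273, adjusted p = 0.106), and it passed with mouse as a block (-0.80, adjusted p = 0.0313) and without TAM Endpoint 49845 (adjusted p = 0.0414). Mthfd1l, the mitochondrial formate producer, gave -0.59 (SE 0.285, adjusted p = 0.117) and Mthfd2, the mitochondrial dehydrogenase, gave -0.75 (SE 0.346, adjusted p = 0.103), which passed without TAM Vehicle 54359 (adjusted p = 0.0447). Mthfd2 was uneven among Vehicle libraries, at 38.6 to 169 CPM, where mouse 57098 was highest.

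Atf4 mRNA stood at 66.6, 77.6, 80.1, 81.0 and 144 CPM in TAM Rebound libraries, at 69.2 CPM at the lowest, 80.6 at the median and 84.2 at the highest in TAM Endpoint libraries, and at 108, 115, 140.1, 141 and 147 CPM in TAM Vehicle libraries. Endpoint libraries were close together and all below Vehicle, and of the Rebound libraries only mouse 49059 was inside the Vehicle range. Endpoint over Vehicle was -0.61 (SE 0.168, adjusted p = 0.00937), a 1.52-fold lower level, and Rebound over Vehicle was -0.45 (SE 0.176), with no test. Asns, an ATF4 target that makes asparagine, was low in all macrophage groups, with 9.66, 14.5, 18.3, 21.7 and 39.7 CPM in TAM Rebound libraries, 7.88 CPM at the lowest, 19.2 at the median and 23.4 at the highest in TAM Endpoint libraries, and 5.20, 7.33, 12.8, 18.0 and 34.9 CPM in TAM Vehicle libraries. These ranges overlapped, and the Endpoint over Vehicle log2 fold change of 0.27 (SE 0.433, adjusted p = 0.661) was the only positive one among the 10.

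Counted together, 4 of 10 genes (Phgdh, Psat1, Shmt2 and Atf4) were called lower and 0 higher in TAM Endpoint against TAM Vehicle, where 19.3% of 13315 genes tested were called lower and 13.7% higher. The median log2 fold change of the 10 was -0.60, beside -0.03 over all genes tested. Phgdh, for which the set was chosen, is part of that count and median, and its p is no independent test. The calls besides it were Psat1, Shmt2 and Atf4. For Rebound over Endpoint, 1 of the 9 genes tested (Psat1) was called higher and 0 lower, where 11.7% of genes were called higher and 5.90% lower. At an unadjusted p under 0.05 that comparison also held 1 of the 9, beside 31.4% of all genes tested. In Rebound over Vehicle, the contrast that chose the genes, 7.73% of all genes were called lower and 7.00% higher, and the median of the 10 was -0.50, beside 0.02 over all genes. These comparisons share libraries pairwise, so their values stand side by side only. Leaving out the 2 TAM Rebound libraries with T and NK cell markers above 100 CPM (49041 and 49059, an alternative chosen after seeing the data) changed no call of these genes between macrophage stages.

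Markers of other cells in the macrophage sort moved with stage in several lists. The 7 oligodendrocyte genes summed to 799.5 to 3696 CPM in Rebound, 749 to 2216 CPM in Endpoint and 294 to 677 CPM in Vehicle libraries, so the Vehicle range lay below both others. The 6 neutrophil genes summed to 67.1 to 2718 CPM in Rebound, 4.75 to 139 CPM in Endpoint and 28.2 to 691 CPM in Vehicle libraries. The Rebound library of mouse 49059 held the highest oligodendrocyte, neutrophil, dendritic cell (535 CPM) and T and NK cell (232 CPM) sums of all TAM libraries, and the lowest macrophage sum, at 23354 CPM. None of the oligodendrocyte or neutrophil genes was at 0 in all libraries of a TAM group. The 9 ependymal and choroid plexus genes summed to 3.43 to 513 CPM in Rebound, 60.0 to 161 CPM in Endpoint and 2.60 to 6.05 CPM in Vehicle libraries, with 3 of the 9 at 0 in all TAM Vehicle libraries. The 9 astrocyte genes summed to 562 to 1827 CPM in Rebound, 1815 to 3107 CPM in Endpoint and 1740.2 to 3300.0 CPM in Vehicle libraries. Most of that sum was Slc1a3, with medians of 1069.8 CPM in Rebound, 1951 CPM in Endpoint and 2320.0 CPM in Vehicle libraries, while Gfap had medians of 172 CPM in Rebound, 79.5 CPM in Endpoint and 54.2 CPM in Vehicle libraries. The 10 tumour cell markers summed to 53.1 to 307 CPM in Rebound, 37.3 to 67.7 CPM in Endpoint and 43.3 to 86.1 CPM in Vehicle libraries. The highest of these sums was that of TAM Rebound 49834. The part of these cells in the values above was not tested.

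**Figure D3:**
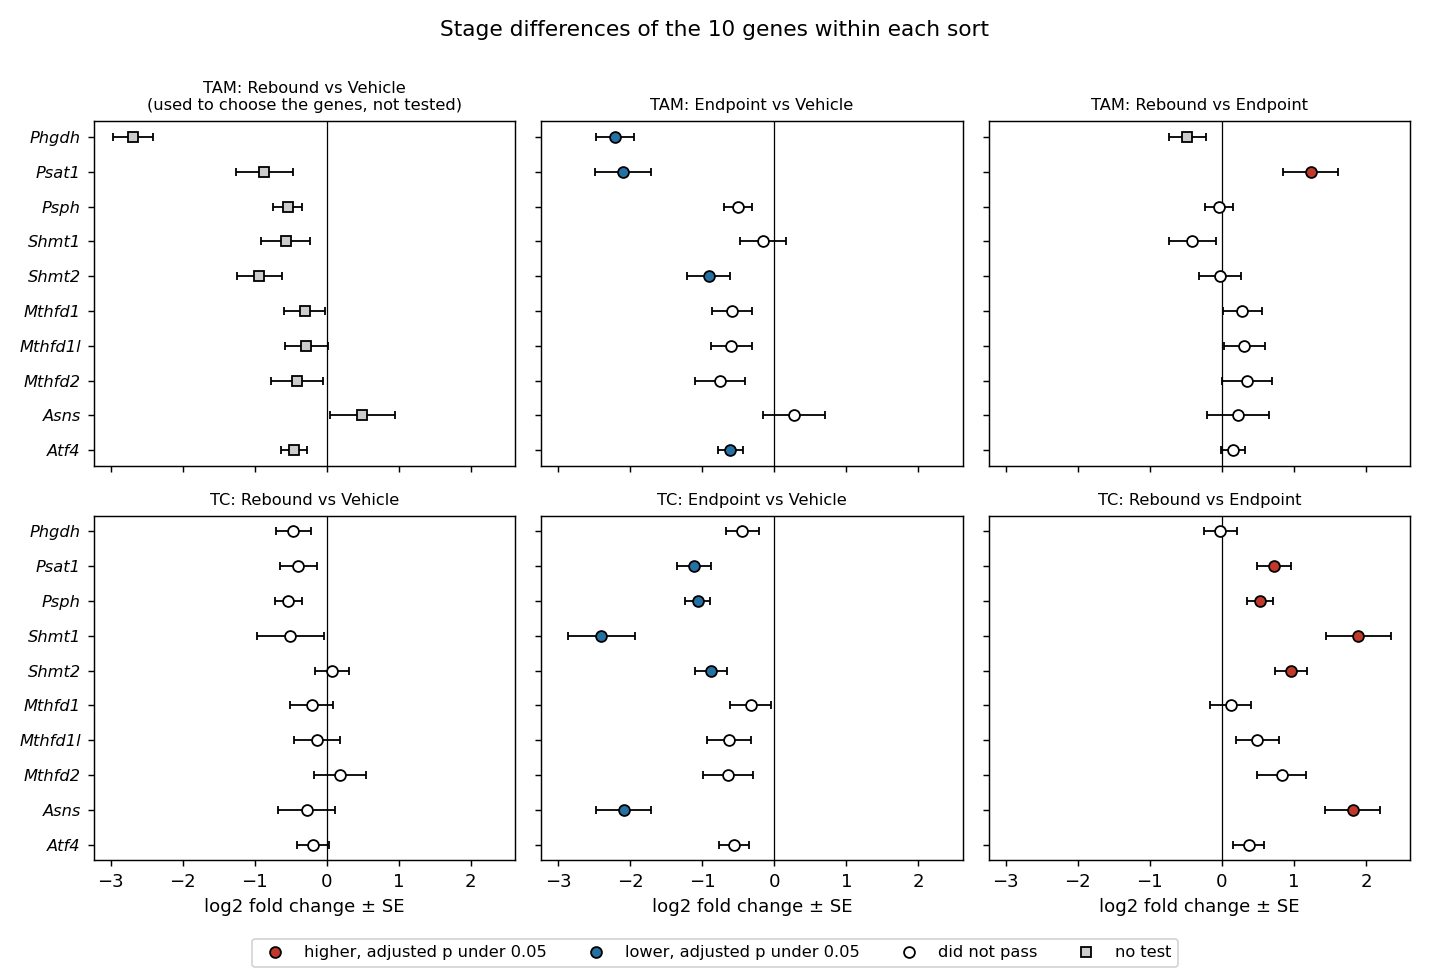
Log2 fold change (x axis, with SE as bars) of the 10 genes for the stage comparisons, macrophages above and PDGFRA+ cells below. Filled circles passed an adjusted p of 0.05, open circles did not, and grey squares have no test. Phgdh in macrophages lies at -2.69 and -2.21 against Vehicle, while in TC the strongest Endpoint differences are those of Shmt1 and Asns, at -2.40 and -2.09. The filled circle of Phgdh at -2.21 is no independent test, since the same Vehicle libraries were used in the choice.

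In PDGFRA+ cells, 5 genes were lower at Endpoint than at Vehicle. Shmt1 and Asns were 5.27-fold and 4.26-fold lower, Psat1, Psph and Shmt2 were 1.85-fold to 2.16-fold lower, and Phgdh did not pass. Shmt1 stood at 17.3, 22, 27.6, 43.5 and 47.0 CPM in TC Rebound libraries, at 3.74 CPM at the lowest, 6.51 at the median and 21.1 at the highest in TC Endpoint libraries, and at 23.1, 30.4, 36.8, 54.6 and 83.5 CPM in TC Vehicle libraries. The highest Endpoint library, mouse 49843, was below the lowest Vehicle library. The log2 fold change was -2.40 (SE 0.463, adjusted p = 0.00216) for Endpoint over Vehicle and 1.90 (SE 0.457, adjusted p = 0.00798) for Rebound over Endpoint. Asns was at 73.8, 79.1, 146, 153 and 187 CPM in TC Rebound libraries, at 8.18 CPM at the lowest, 41.4 at the median and 52.9 at the highest in TC Endpoint libraries, and at 126, 138, 141, 145 and 240.3 CPM in TC Vehicle libraries. Endpoint lay below all libraries of both other groups. The log2 fold change was -2.09 (SE 0.387, adjusted p = 0.00175) for Endpoint over Vehicle and 1.82 (SE 0.385, adjusted p = 0.00416) for Rebound over Endpoint.

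Psat1 averaged 262 ± 53.6 CPM in TC Rebound libraries, 161 ± 48.1 CPM in TC Endpoint libraries and 350.3 ± 107 CPM in TC Vehicle libraries (SD), with -1.11 (SE 0.240, adjusted p = 0.00389) for Endpoint over Vehicle and 0.72 (SE 0.239, adjusted p = 0.0366) for Rebound over Endpoint. Psph averaged 71.1 ± 8.74 CPM in TC Rebound libraries, 49.8 ± 5.87 CPM in TC Endpoint libraries and 105 ± 23.3 CPM in TC Vehicle libraries. Its log2 fold change was -1.06 (SE 0.177, adjusted p = 0.000994) for Endpoint over Vehicle and 0.53 (SE 0.176, adjusted p = 0.0372) for Rebound over Endpoint. Endpoint ranges of both genes lay below Vehicle, and for Psph also below Rebound. Both Rebound over Endpoint calls were close to the threshold. That of Psat1 was lost without any of TC Rebound 49692 and 49849 and TC Endpoint 49823, 49825, 49830 and 49831 (adjusted p = 0.0629 to 0.108). That of Psph was lost without any of TC Rebound 49041, 49692 and 49849 and TC Endpoint 49823, 49825 and 49831 (adjusted p = 0.0672 to 0.0945). It was also lost with RLE scaling (0.48, adjusted p = 0.0581). With single libraries left out, log2 fold changes stayed at 0.61 to 0.88 for Psat1 and 0.48 to 0.60 for Psph.

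Shmt2 averaged 108 ± 22 CPM in TC Rebound libraries, 56.0 ± 15.8 CPM in TC Endpoint libraries and 104 ± 9.31 CPM in TC Vehicle libraries, with -0.88 (SE 0.221, adjusted p = 0.00895) for Endpoint over Vehicle and 0.96 (SE 0.221, adjusted p = 0.00634) for Rebound over Endpoint. Endpoint libraries lay below those of both other groups. Phgdh stood at 50.9, 57.4, 63.5, 64.6 and 75.6 CPM in TC Rebound libraries, at 31.6 CPM at the lowest, 60.3 at the median and 104 at the highest in TC Endpoint libraries, and at 81.8, 83.7, 86.5, 88.9 and 97.2 CPM in TC Vehicle libraries. Endpoint mouse 49845 exceeded all Vehicle libraries, and the other 5 lay below them. The Endpoint over Vehicle log2 fold change of -0.44 (SE 0.227, adjusted p = 0.155) did not pass, and passed without TC Endpoint 49845 (adjusted p = 0.0250). Mouse 49845 was the TC library with the highest ependymal and choroid plexus sum, at 166454 CPM.

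Among the rest, Mthfd1 gave -0.33 (SE 0.288, adjusted p = 0.416) for Endpoint over Vehicle and passed without TC Endpoint 49845 (adjusted p = 0.0276), the mouse whose Mthfd1 level of 151 CPM stood above the 77.3 CPM of the next. Mthfd1l gave -0.63 (SE 0.304, adjusted p = 0.131) and Mthfd2 -0.64 (SE 0.347, adjusted p = 0.174). Mthfd2 Rebound over Endpoint was 0.83 (SE 0.347, adjusted p = 0.0887) and passed without TC Rebound 49041 (adjusted p = 0.0197). Atf4 ranged over 61.6 to 139 CPM in TC Rebound libraries, 60.2 to 85.6 CPM in TC Endpoint libraries and 91.3 to 128 CPM in TC Vehicle libraries. Endpoint and Vehicle ranges of Atf4 did not overlap, yet its log2 fold change of -0.56 (SE 0.210, adjusted p = 0.0547) missed the threshold. It passed with mouse as a block (-0.55, adjusted p = 0.0228), without a filter on low counts, with the counts of BLZ945 libraries halved, and without TC Vehicle 54359 (adjusted p = 0.0342).

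In all, 5 of 10 genes were called lower and 0 higher in TC Endpoint against TC Vehicle, where 14.8% of 14985 genes tested were lower and 14.0% higher, and the median log2 fold change was -0.76 for the 10 and 0.03 for all genes. The same 5 genes were called higher and 0 lower in Rebound over Endpoint, where 13.6% of genes were higher and 11.5% lower. These 2 comparisons share the Endpoint libraries. In those libraries the 7 oligodendrocyte genes summed to 18138 to 26122 CPM (TC Rebound 446 to 13758 CPM, TC Vehicle 2262 to 14690.4 CPM), the 16 cell cycle genes to 263 to 1423 CPM (TC Rebound 1071 to 3239 CPM, TC Vehicle 1463 to 2721 CPM), and the 8 T and NK cell genes to 6.26 to 3688 CPM (TC Rebound 1.83 to 2232 CPM, TC Vehicle 2.13 to 6.46 CPM). None of the oligodendrocyte or T and NK cell genes was at 0 in all TC Endpoint libraries. The part of oligodendrocytes, ependymal cells and dividing cells in these differences was not tested. Without the 5 TC libraries whose T and NK sum exceeded 1000 CPM (Endpoint 49823, 49825, 49830 and 49831, Rebound 49827), an alternative chosen after seeing the data, 2 Endpoint libraries remained. Then only Asns was called in Endpoint over Vehicle, and log2 fold changes were -1.57, adjusted p = 0.0999 for Shmt1, -0.71, adjusted p = 0.212 for Psat1, -0.96, adjusted p = 0.0654 for Psph and -1.02, adjusted p = 0.0970 for Shmt2. In Rebound over Endpoint 2 genes were then called, and Psat1 (0.35, adjusted p = 0.495), Psph (0.43, adjusted p = 0.325) and Shmt1 (1.22, adjusted p = 0.148) were not. Over all genes, fewer were then called in Endpoint over Vehicle too, as given further below. The share of all genes in the reduced Rebound over Endpoint fit is not given here. The lower counts are thus not read as a result about the 10 genes.

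Between TC Rebound and TC Vehicle, 0 of 10 genes were called by edgeR, where 0.0400% of all genes (6) were higher and 0.0334% (5) lower. At an unadjusted p under 0.05, 1 of the 10 passed (Psph), and 2243 of all genes did (15%). DESeq2 called 0 of the 10 and 600 genes. With mouse as a block, by voom in one fit of both sorts, 1163 genes were called, and Psph among them (-0.53, adjusted p = 0.0390). Phgdh libraries of the groups did not overlap, with a log2 fold change of -0.46 (SE 0.238, adjusted p = 0.379) and a 95% interval of -0.93 to 0.01. For Shmt1 the interval was -1.42 to 0.41, and for Asns -1.05 to 0.50, so a difference of -1 lay inside both intervals.

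Set against PDGFRA+ cells of the same stage, macrophages were low in Asns and Psph at all 3 stages, and the place of Phgdh changed with stage. These log2 fold changes, TAM over TC, come from a fit over all 32 libraries. Asns was at 5.20 to 39.7 CPM over all TAM libraries, against 8.18 to 240.3 CPM over all TC libraries. Its log2 fold change was -2.62 (SE 0.473, adjusted p = 3.85e-05) at Rebound, -1.08 (SE 0.414, adjusted p = 0.0305) at Endpoint and -3.33 (SE 0.487, adjusted p = 1.28e-06) at Vehicle. The Endpoint call was lost without any of TAM Endpoint 49823 and 49830 and TC Endpoint 49823, 49831 and 49843 (adjusted p = 0.0621 to 0.128), with no filter on low counts (-0.94, adjusted p = 0.0748), and without the 5 TC libraries with T and NK markers (-0.73, adjusted p = 0.324). Psph gave -1.38 (SE 0.182, adjusted p = 3.67e-07) at Rebound, -0.86 (SE 0.164, adjusted p = 8.58e-05) at Endpoint and -1.31 (SE 0.181, adjusted p = 5.10e-07) at Vehicle, and at each stage the TAM range lay below the TC range.

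Phgdh was lower in TAM at Rebound, with -1.49 (SE 0.257) and no test, and lower at Endpoint, with -1.09 (SE 0.233, adjusted p = 0.000285). At Vehicle it was higher in TAM, with 0.79 (SE 0.252, adjusted p = 0.00931), a 1.72-fold difference whose TAM libraries also served to choose the gene. That call was lost without TAM Vehicle 64247 (adjusted p = 0.0615), the library with the highest Phgdh level. Psat1 gave -1.21 (SE 0.341, adjusted p = 0.00436) at Rebound, -1.77 (SE 0.317, adjusted p = 3.76e-05) at Endpoint and -0.67 (SE 0.338, adjusted p = 0.0945) at Vehicle. The Vehicle value passed without TAM Vehicle 64247 (adjusted p = 0.0373) and by DESeq2 (-0.78, adjusted p = 0.0471). Without TAM Rebound 49041 and 49059, the Rebound value was -0.95, adjusted p = 0.0580.

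Shmt1 was lower in TAM at Rebound, with -1.03 (SE 0.427, adjusted p = 0.0468), and higher at Endpoint, with 1.23 (SE 0.397, adjusted p = 0.0108). At Vehicle it gave -0.91 (SE 0.425, adjusted p = 0.0696). The Rebound call was lost with mouse as a block (-0.85, adjusted p = 0.0647) and without any of TAM Rebound 49041, 49059, 49827, 49834 and 49849 and TC Rebound 49059, 49692 and 49849 (adjusted p = 0.0505 to 0.128), with no filter on low counts (-1.02, adjusted p = 0.0621), and without both TAM Rebound 49041 and 49059 (-1.17, adjusted p = 0.0756). At Vehicle it passed with the block (-0.83, adjusted p = 0.0326), with RLE scaling or DESeq2, and without TC Vehicle 54359 and TAM Vehicle 57098 (adjusted p = 0.0383 to 0.0400). The Endpoint call was lost without the 5 TC libraries with T and NK markers (0.49, adjusted p = 0.458). Shmt2 was lower in TAM at Rebound, with -0.82 (SE 0.281, adjusted p = 0.0169), a call lost with the block (-0.82, adjusted p = 0.0605), and gave 0.12 (SE 0.256, adjusted p = 0.718) at Endpoint and 0.25 (SE 0.279, adjusted p = 0.475) at Vehicle. Mthfd2 was higher in TAM at Vehicle, with 0.91 (SE 0.381, adjusted p = 0.0434). That call was lost with RLE scaling, with no filter, by DESeq2, with the block (0.74, adjusted p = 0.123), and without any of TC Vehicle 54359, 54363, 57098, 57682 and 64247 and TAM Vehicle 54363, 57098 and 57682 (adjusted p = 0.0511 to 0.272). At Endpoint Mthfd2 gave 0.69 (SE 0.349, adjusted p = 0.0975) and passed without TC Endpoint 49843 (adjusted p = 0.0356). Mthfd1, Mthfd1l and Atf4 passed at no stage.

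At Rebound 5 of the 9 genes tested were called lower in TAM and 0 higher, where 27.4% of 15668 genes were lower and 20.4% higher. The count was 3 with the block. At Endpoint 4 of 10 were lower and 1 higher, where 32.4% of genes were lower and 18.7% higher. At Vehicle 2 of 10 were lower and 2 higher, where 29.2% of genes were lower and 25.6% higher. Phgdh was among the higher ones, and its p there is no independent test. The shares of the 10 genes at Endpoint and Vehicle were near those of all genes. With RLE scaling, the median of all genes at Vehicle moved to -0.23, against -0.12 with TMM.

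The stage differences of the sorts were compared directly in the same fit, as the difference in TAM minus that in TC. For Endpoint over Vehicle, the value was -1.88 (SE 0.343, adjusted p = 0.000276) for Phgdh, which fell in macrophages, and again its Vehicle TAM libraries had been used in the choice. It was 2.14 (SE 0.582, adjusted p = 0.00781) for Shmt1 and 2.25 (SE 0.613, adjusted p = 0.00790) for Asns, both of which fell in TC. Psat1 gave -1.10 (SE 0.457, adjusted p = 0.0760) and passed with the block (-1.23, adjusted p = 0.0212) and without TAM Endpoint 49843 and TC Vehicle 54363 (adjusted p = 0.0267 to 0.0427), and Psph gave 0.45 (SE 0.242, adjusted p = 0.172) and passed without TAM Vehicle 64247 (adjusted p = 0.0354). Without the 5 TC libraries with T and NK markers, Shmt1 was at 1.46, adjusted p = 0.131. In total 2 of 10 genes were called higher and 1 lower, where 8.73% of genes were called higher and 17.0% lower. The 1 called lower was Phgdh, whose p is no independent test.

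For Rebound over Endpoint, the TAM minus TC difference was -2.26 (SE 0.584, adjusted p = 0.00731) for Shmt1, with 1.90 in TC beside -0.41 in TAM. Without the 5 TC libraries it was -1.71, adjusted p = 0.0707. Asns gave -1.54 (SE 0.609, adjusted p = 0.0697) and passed with the block (-1.77, adjusted p = 0.0263), by DESeq2 (-1.54, adjusted p = 0.0470), without TAM Rebound 49041 and 49059 (-1.99, adjusted p = 0.0462) and without TAM Rebound 49059, TC Rebound 49827 and TC Endpoint 49843 (adjusted p = 0.0305 to 0.0393). Shmt2 gave -0.94 (SE 0.380, adjusted p = 0.0763) and passed without any of TC Rebound 49827, TAM Endpoint 49830 and 49831 and TC Endpoint 49843 (adjusted p = 0.0265 to 0.0459). Phgdh gave -0.40 (SE 0.341), with no test. Of the 9 genes tested, 1 was called lower and 0 higher, where 7.18% of genes were lower and 13.4% higher, and DESeq2 or the block called 2.

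Compared per length of annotated exons (CPM per kb, GENCODE M21), the order of the 10 genes differed between sorts. Phgdh ranked highest in TAM Vehicle, at 60.8 ± 21.9 CPM per kb, ahead of Atf4 at 55.3 ± 7.34 and Psat1 at 51.8 ± 18.9, whose libraries overlapped with it. In TAM Rebound it was the sixth of the 10, at 8.91 ± 1.65 CPM per kb, and in TAM Endpoint the fifth, at 12.1 ± 4.13. Psat1 ranked highest in TC of all stages, with 61.6 ± 12.6 CPM per kb in Rebound, 37.8 ± 11.3 in Endpoint and 82.4 ± 25.1 in Vehicle libraries. Within single libraries, the per-length ratio of Phgdh to Psat1 had a median of 0.356 in TAM Rebound (0.244 to 0.519), 1.13 in TAM Endpoint (0.820 to 2.5) and 1.16 in TAM Vehicle (0.974 to 1.48). The Rebound range thus lay apart from both others, and this ratio is a description, since Rebound Phgdh chose the genes. By group mean in CPM, Phgdh ran in the order TAM Vehicle, TC Vehicle, TC Endpoint, TC Rebound, TAM Endpoint and TAM Rebound. Only TC Rebound and TAM Endpoint were neighbours in that order whose libraries did not overlap.

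Counts were made from a kit that does not mark strand, and the strand setting of the count is not given in the sources used here. Exons of Psph overlap those of Cct6a on the other strand over 452 bases, those of Shmt1 overlap Smcr8 over 184 bases, and those of Shmt2 overlap Ndufa4l2 over 32 bases, so reads there cannot be told apart. In TC Endpoint over Vehicle, Cct6a had a log2 fold change of -0.89 (adjusted p = 0.00916) and Smcr8 one of 0.10 (adjusted p = 0.874). A processed pseudogene of Phgdh in the annotation, Phgdh-ps1, may also share reads with it.

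Around the 10 genes, the lists of neighbouring pathways are read against the shares of all genes called, in TAM Endpoint against Vehicle 19.3% lower and 13.7% higher. Of 12 cytosolic aminoacyl-tRNA synthetases, which charge tRNAs and include many ATF4 targets, 7 were called lower and 1 higher in TAM Endpoint against Vehicle, with a list median of -0.65 beside -0.03 for all genes. Wars averaged 75.3 ± 24.4 CPM in TAM Endpoint and 205 ± 53.2 CPM in TAM Vehicle libraries, with -1.32 (SE 0.204, adjusted p = 0.000109), while Gars, at 155 ± 36.6 CPM in TAM Endpoint and 78.4 ± 30.3 CPM in TAM Vehicle, gave 1.10 (SE 0.240, adjusted p = 0.00188). Of 21 ATF4 target genes tested, 8 were lower and 2 higher, beside 19.3% and 13.7% of all genes, with a median of -0.47. The stress gene Chac1 (at most 4.58 CPM in any TAM library) gave -3.71 (SE 0.931, adjusted p = 0.00505) and the stress-induced factor Atf3 -2.53 (SE 0.424, adjusted p = 0.000318). In Rebound over Endpoint, 3 ATF4 targets were higher and 3 lower (11.7% and 5.90% of all genes), with Chac1 at 3.29 (SE 0.930, adjusted p = 0.0196) and Atf3 at 2.19 (SE 0.420, adjusted p = 0.00201). Without TAM Rebound 49041 and 49059, Chac1 gave 3.12, adjusted p = 0.0551, and 2 targets were higher and 4 lower.

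The gene of PERK, the eIF2 kinase of the endoplasmic reticulum, rose in TAM Endpoint against Vehicle, where Atf4 fell. Eif2ak3 averaged 20.5 ± 4.93 CPM in TAM Rebound, 39.6 ± 4.85 CPM in TAM Endpoint and 15.6 ± 5.26 CPM in TAM Vehicle libraries, with 1.46 (SE 0.222, adjusted p = 9.25e-05) for Endpoint over Vehicle and -0.98 (SE 0.218, adjusted p = 0.00465) for Rebound over Endpoint, a call lost without TAM Rebound 49041 and 49059 (-0.83, adjusted p = 0.0504). Eif2ak4, the gene of the amino acid sensor GCN2, gave 0.91 (SE 0.249, adjusted p = 0.00900) for Endpoint over Vehicle, and the other 3 of the 5 genes did not pass. Of 15 folate cycle and transport genes, 4 were lower and 1 higher in TAM Endpoint, near the shares of all genes (19.3% and 13.7%), with a median of -0.22. Folr2, a folate receptor of macrophages, was at 11 ± 4.24 CPM in TAM Rebound, 1.91 ± 0.685 CPM in TAM Endpoint and 28.3 ± 21.9 CPM in TAM Vehicle libraries. It gave -3.76 (SE 0.573, adjusted p = 0.000118) for Endpoint over Vehicle and 2.48 (SE 0.555, adjusted p = 0.00502) for Rebound over Endpoint, and the reduced folate carrier gene Slc19a1 gave -0.90 (SE 0.180, adjusted p = 0.000973) for Endpoint over Vehicle. Of 10 purine synthesis genes, 2 were lower and 1 higher, also near the 19.3% and 13.7% of all genes. Among the lower was Gart, a consumer of formyl-tetrahydrofolate, with -0.92 (SE 0.181, adjusted p = 0.000864). Of 13 genes of serine and glycine metabolism and transport tested, 1 was lower (Sfxn3, -0.99 (SE 0.191, adjusted p = 0.000724)) and 1 higher. Sfxn3 belongs to the sideroflexins, mitochondrial carriers that include serine transporters.

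In TC Endpoint against Vehicle, 9 of 12 synthetases were called lower and 0 higher (median -0.78, beside 0.03 for all genes), and 7 were higher in Rebound over Endpoint, where 13.6% of all genes were. In Endpoint against Vehicle 14.8% of all genes were lower and 14.0% higher. Of 22 ATF4 targets, 5 were lower and 0 higher, beside those shares, led by the proline synthesis gene Pycr1 at -2.14 (SE 0.656, adjusted p = 0.0233) and the alanine transaminase gene Gpt2 at -2.04 (SE 0.240, adjusted p = 0.000251). Of 14 serine and glycine genes tested, 5 were lower and 3 higher, beside 14.8% and 14.0% of all genes. Slc1a4, a neutral amino acid transporter gene that carries serine, averaged 52.0 ± 23.9 CPM in TC Rebound, 11.9 ± 5.57 CPM in TC Endpoint and 41.6 ± 20.6 CPM in TC Vehicle libraries and gave 2.14 (SE 0.463, adjusted p = 0.00463) for Rebound over Endpoint. Without the 5 TC libraries with T and NK markers it gave 2.02, adjusted p = 0.0573. Of the 15 folate genes 4 were lower and 3 higher, beside 14.8% and 14.0% of all genes. Aldh1l2, a mitochondrial formyl-tetrahydrofolate dehydrogenase gene, averaged 104 ± 39.9 CPM in TC Rebound, 8.31 ± 7.07 CPM in TC Endpoint and 86.3 ± 51.6 CPM in TC Vehicle libraries, with -3.37 (SE 0.710, adjusted p = 0.00374) for Endpoint over Vehicle, a call lost without those 5 libraries (-3.10, adjusted p = 0.101). Folr1, a folate receptor of choroid plexus, gave 8.25 (SE 1.72, adjusted p = 0.00369), in the libraries that carried the choroid plexus markers. Folr1 is itself one of those marker genes. Of 10 genes tested in the methionine cycle and transsulfuration list, 5 were higher and 0 lower, where 14.0% of all genes were higher. Among them Ahcyl2, listed as an AHCY-like gene, gave 2.84 (SE 0.365, adjusted p = 0.000337).

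Of 16 cell cycle genes, 13 were lower and 0 higher in TC Endpoint against Vehicle, where 14.8% of all genes were lower and 14.0% higher. In TC Rebound against Endpoint 14 were higher and 0 lower, where 13.6% of all genes were higher and 11.5% lower. In TAM Endpoint against Vehicle 1 was higher and 1 lower, where 13.7% of all genes were higher and 19.3% lower. In TAM Rebound against Endpoint 6 were lower and 0 higher, where 5.90% of all genes were lower and 11.7% higher. Without the 5 TC libraries with T and NK markers, the genes called lower in TC Endpoint against Vehicle were 2 synthetases, 3 ATF4 targets, 1 serine and glycine gene, 0 folate genes, 1 purine synthesis gene and 4 cell cycle genes, with medians of -0.74 for synthetases and -1.51 for cell cycle genes. Those called higher were 3 folate genes, 4 genes of the methionine cycle and transsulfuration list and 1 serine and glycine gene. With those 5 libraries left out, fewer of all genes were also called in TC Endpoint against Vehicle, as given further below. Pycr1 was then at -1.87, adjusted p = 0.219, and Gpt2 was still called (-1.75, adjusted p = 0.0152). In Rebound over Endpoint without them, 1 synthetase, 5 cell cycle genes, 4 ATF4 targets and 2 purine synthesis genes were called higher. So were 1 serine and glycine gene and 1 gene of the eIF2 kinase list. Those called lower were 4 folate genes, 4 of the methionine cycle and transsulfuration list, 3 serine and glycine genes and 1 ATF4 target. The share of all genes called in that fit is not given here, so these counts are not read further. With all libraries, edgeR called no gene of the 8 lists in TC Rebound against Vehicle. Of all genes, 0.0400% were called higher there and 0.0334% lower. Without those 5 libraries, 1 serine and glycine gene, 1 folate gene and 1 ATF4 target were called lower in this comparison. More of all genes were then called there too, as given further below. The lists were drawn up with earlier results of these libraries known, so their counts are descriptions.

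**Figure D4:**
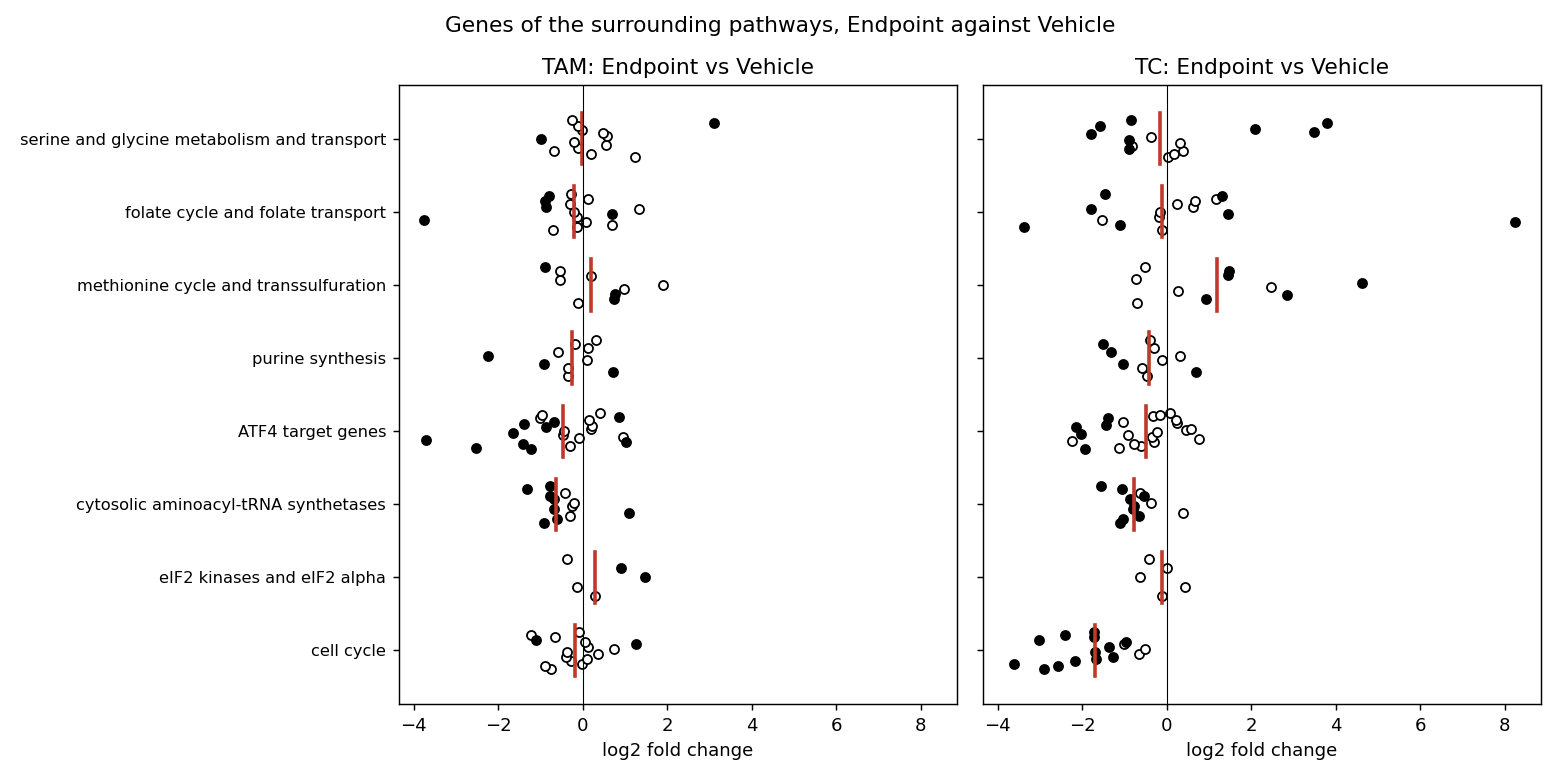
Log2 fold change (x axis) of each tested gene of 8 pathway lists in Endpoint against Vehicle, for macrophages on the left and PDGFRA+ cells on the right. Filled points passed an adjusted p of 0.05, and red bars are list medians, which for the aminoacyl-tRNA synthetases lie at -0.65 in TAM and -0.78 in TC, and for cell cycle genes at -0.19 in TAM and -1.70 in TC.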

How the data were processed

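RNA from TAM and TC sorted from mouse gliomas was sequenced with 2 reads of 50 bases per fragment, in 32 libraries of 17 mice. The deposited table holds whole-number counts per gene symbol, not normalized by the authors. The submitters' processing notes name STAR 2.3.0e, SAMtools and the build mm10. How genes were counted, and with which annotation and strand setting, is not given in the sources used here.

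Groups came from the labels' cell type and stage, and libraries are named by mouse. No 2 libraries of a group agreed within sampling noise (lowest chi-square per degree of freedom 19.7 over 70 pairs). Counts were tested with edgeR 4.0.16 in R 4.3.3 (filterByExpr, TMM, glmQLFit with robust=TRUE, glmQLFTest, Benjamini-Hochberg adjustment over all genes tested, threshold 0.05). Stage comparisons used one fit per sort, and TAM over TC and the differences between sorts used a fit of all 6 groups. SE comes from the F statistic and 95% intervals are 1.96 SE. Levels are CPM after TMM scaling over all libraries. The fits were checked on simulated counts.

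Alternatives were RLE scaling, no filter, halved BLZ945 counts, DESeq2 1.42.0, each library left out, and a replicate block for the mouse (limma 3.58.1 voom with a random block for stages, and edgeR with mouse as a term for TAM over TC). For stages, the random-block fit also replaced edgeR by voom and joined both sorts. Calls that it changed thus cannot be credited to the block alone. The pairing comes from the 15 mice that gave both sorts. Their libraries' deviations from group means correlated with r of 0.011 to 0.337 (median 0.066), over 0.1 in 5 of 15 mice.

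The members, pathway lists and marker lists were chosen with earlier results of these data known. All 10 members are named in every comparison. Of each list, up to 2 genes per comparison with the largest absolute log2 fold change among those called could be named, and the text gives some of these. The 5 genes most like Phgdh were taken by the smallest root mean square difference over 6 centred group means. No p is given for any member in TAM Rebound over Vehicle, or for Phgdh in other comparisons that use TAM Rebound libraries. Each p of Phgdh that uses the TAM Vehicle libraries is not an independent test. Counting error is part of the spread between mice.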

Additional observations from a re-analysis of the deposited data

Results flagged for a closer look

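Of 60 sets of 5 or 6 libraries (10 genes in 6 groups), 7 held a library far from its group by Dixon's test, a test that flags about 1 in 20 sets by chance. In TC Endpoint libraries, Shmt1 was at 21.1 CPM in mouse 49843, beside 9.63 CPM in the next. That library also had the highest sum of tumour cell markers in its group, at 2150.0 CPM. In TC Endpoint mouse 49845, Mthfd1 was at 151 CPM, beside 77.3 CPM in the next, and Mthfd1l was at 8.0 CPM, beside 17.4 CPM. That library had the highest ependymal and choroid plexus sum. Mthfd2 was at 23.1 CPM in TAM Endpoint mouse 49830, beside 46.0 CPM in the next. The Vehicle mouse 54363 stood apart for Mthfd1 in TAM (116 CPM, beside 89.8 CPM) and for Asns in TC (240.3 CPM, beside 145 CPM). Atf4 was at 144 CPM in TAM Rebound mouse 49059, beside 81.0 CPM in the next. That library had the highest oligodendrocyte (3696 CPM), neutrophil (2718 CPM), dendritic cell (535 CPM) and T and NK cell (232 CPM) sums and the lowest macrophage sum (23354 CPM) of all TAM libraries. The part of these markers in the values was not tested.

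The stage difference in TAM differed from that in TC for 4 results. For Endpoint over Vehicle, the TAM minus TC difference in log2 fold change was -1.88 for Phgdh (SE 0.343, adjusted p = 0.000276), 2.14 for Shmt1 (SE 0.582, adjusted p = 0.00781) and 2.25 for Asns (SE 0.613, adjusted p = 0.00790). For Rebound over Endpoint it was -2.26 for Shmt1 (SE 0.584, adjusted p = 0.00731). The test is edgeR's, in the fit over both sorts. The Shmt1 differences were not called without the 5 TC libraries with T and NK markers, and those of Phgdh and Asns passed in all 28 alternative fits. For Phgdh these fits reuse TAM Vehicle libraries that served in its choice, so they are no independent test.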

How the results depend on the processing

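Phgdh, Psat1 and Atf4 in TAM Endpoint over Vehicle, Asns in TC Endpoint over Vehicle and in TC Rebound over Endpoint, and Psph in TAM over TC at every stage passed in all their alternatives (RLE scaling, no filter, halved BLZ945 counts, DESeq2, a mouse block, each library left out, and the sets of libraries with T and NK markers left out). So did Shmt2 in TC Rebound over Endpoint, Asns in TAM over TC at Rebound and Vehicle, and Phgdh and Psat1 in TAM over TC at Endpoint. The TAM minus TC differences of Phgdh and Asns in Endpoint over Vehicle did too, as given above. For Phgdh in TAM Endpoint over Vehicle the adjusted p ranged over 4.86e-14 to 6.20e-05, for Psat1 over 2.05e-07 to 0.00233. All fits of Phgdh in TAM Endpoint over Vehicle, and in that difference between sorts, reuse TAM Vehicle libraries that served in its choice. Its range shows how the value depends on processing and is no independent test. The value of Phgdh in TAM Rebound over Vehicle stayed negative and moved by less than the spread between libraries. Halving the BLZ945 counts moved 1 call of the 10 genes (Atf4 in TC Endpoint over Vehicle, to adjusted p = 0.0490). Calls gained or lost with the mouse block stand beside their results, and it changed no other call.

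The number of the 10 genes called in TAM Rebound over Endpoint was 1, and it was 0 with no filter and 0 to 1 with single libraries left out. It was 1 in place of 5 for TC Endpoint over Vehicle and 2 in place of 5 for TC Rebound over Endpoint without the 5 TC libraries, and 3 to 5 for the second with single libraries left out. In TC Rebound over Vehicle it was 1 with the mouse block, in place of 0. In TAM over TC it was 3 in place of 5 at Rebound with the mouse block or without the 2 TAM libraries, and 3 in place of 5 at Endpoint without the 5 TC libraries. For the TAM minus TC difference in Rebound over Endpoint it was 1, and it was 2 with DESeq2, the mouse block or without the 2 TAM libraries, 0 without the 5 TC libraries and 1 to 3 with single libraries left out. Over all genes, calls in TAM Rebound over Vehicle numbered 1961, but 1048 with the block and 1084 without the 2 TAM libraries. In TAM Rebound over Endpoint they numbered 2337, but 1174 and 1345 in the same settings. In TC Endpoint over Vehicle they numbered 4305, but 1124 without the 5 TC libraries, and in TC Rebound over Endpoint 3758, but 6629 with the block. In TC Rebound over Vehicle they numbered 11, but 25 with halved counts, 600 by DESeq2, 1163 with the block, 320 without the 5 TC libraries and 0 to 586 with single libraries left out. For the TAM minus TC differences they numbered 4025 in Endpoint over Vehicle, but 2350 without the 5 TC libraries, and 3225 in Rebound over Endpoint, but 2070 without the 2 TAM libraries. The cause of these shifts was not tested, beyond the fewer libraries in some fits.

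Values that changed sign were not called, in the settings used in the report or in these. With RLE scaling, these were Mthfd1 at -0.094 in TAM over TC at Vehicle. With DESeq2, these were Mthfd1 at -0.094 in TAM over TC at Vehicle. With no filter on low counts, these were Phgdh at 0.044 in TC Rebound over Endpoint, and Mthfd1l at 0.077 and Shmt2 at 0.014 in the TAM minus TC difference in Endpoint over Vehicle. With mouse as a random block, these were Psph at 0.015 and Shmt2 at 0.12 in TAM Rebound over Endpoint, and Mthfd2 at 0.095 in the TAM minus TC difference in Endpoint over Vehicle. With mouse as a fixed block, these were Atf4 at 0.048 in TAM over TC at Rebound, and Mthfd1l at -0.014 in TAM over TC at Endpoint. Without the 2 TAM Rebound libraries with T and NK markers, these were Asns at -0.18, Atf4 at -0.069 and Psph at 0.047 in TAM Rebound over Endpoint, and Mthfd2 at -0.032 in TAM over TC at Rebound. Without the 5 TC libraries with such markers, these were Mthfd1 at 0.096 in TC Endpoint over Vehicle, Mthfd1 at -0.26 in TC Rebound over Endpoint, and Atf4 at 0.14, Mthfd1l at 0.35, Mthfd2 at 0.19 and Shmt2 at 0.15 in the TAM minus TC difference in Endpoint over Vehicle. With single libraries left out, log2 fold changes of some genes that were not called lay on both sides of 0. In TAM Endpoint over Vehicle, it was Shmt1 (-0.35 to 0.047). In TAM Rebound over Endpoint, it was Asns (-0.13 to 0.38), Atf4 (-0.063 to 0.23), Psph (-0.12 to 0.089) and Shmt2 (-0.19 to 0.11). In TC Rebound over Vehicle, it was Mthfd1l (-0.36 to 0.057) and Shmt2 (-0.030 to 0.16). In TC Rebound over Endpoint, it was Phgdh (-0.16 to 0.17). In TAM over TC at Rebound, it was Atf4 (-0.33 to 0.070), Mthfd1l (-0.23 to 0.15) and Mthfd2 (-0.011 to 0.46). In TAM over TC at Endpoint, it was Mthfd1l (-0.097 to 0.26) and Shmt2 (-0.030 to 0.37). In TAM over TC at Vehicle, it was Mthfd1 (-0.11 to 0.11). In the TAM minus TC difference in Endpoint over Vehicle, it was Atf4 (-0.22 to 0.033), Mthfd1l (-0.26 to 0.17), Mthfd2 (-0.40 to 0.20) and Shmt2 (-0.28 to 0.12). In the TAM minus TC difference in Rebound over Endpoint, it was Atf4 (-0.40 to 5.2e-04), Mthfd1 (-0.13 to 0.40) and Mthfd1l (-0.33 to 0.089). Each of the 10 genes had counts in every library. In Endpoint and Rebound libraries every count was even, and whether fragments were counted more than once there is not known.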

Other observations

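Genes were ranked by how closely their 6 group means of log2 CPM followed those of Phgdh, each profile centred on its own mean, by the root mean square difference. Over 15667 other genes in the joint fit, the 5 closest were Hydin, Atp6v1c2, Atp13a5, Gdf15 and Hist1h2bj, with differences of 0.342 to 0.384. All 5 had very low levels, with group means of at most 1.64 CPM, and Hist1h2bj was at 0 CPM in TAM Rebound libraries. At such levels their profiles are uncertain. Of the other members, Shmt2 ranked 117 (0.615), Psat1 502 (0.714), Mthfd1 514, Psph 611, Atf4 660 and Mthfd1l 899, while Mthfd2 ranked 3341, Shmt1 4178 and Asns 10563.

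With the ranking limited to the 9967 genes that averaged at least 10 CPM, a limit chosen after seeing the data, the closest was Gpd1, which encodes the cytosolic glycerol-3-phosphate dehydrogenase (difference 0.405). Gpd1 averaged 8.36 ± 3.13 CPM in TAM Rebound, 6.69 ± 1.18 in TAM Endpoint, 24.9 ± 3.92 in TAM Vehicle, 28.3 ± 16 in TC Rebound, 21.8 ± 18.4 in TC Endpoint and 32.1 ± 15.2 in TC Vehicle libraries (SD). The next were Tubg1, a gamma tubulin gene, Cdkn2d, a cyclin-dependent kinase inhibitor gene, the histone gene Hist1h4d and Pold2, a DNA polymerase delta subunit gene. These are descriptions over 6 group means, and no function is read from them.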
